A study of Mus musculus with 24 samples.

Results

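The genes described are 9 that mark and arm cytotoxic lymphocytes: the granzyme genes Gzma, Gzmb and Gzmk, the pore protein gene Prf1, the granule membrane gene Nkg7, the receptor genes Klrk1, Klrd1 and Ncr1, and the cytokine gene Ifng. They were chosen by name from the 56422 gene names of a table of transcript abundance in mouse peritoneal tissue, and all 9 were found. RNA was sequenced from 24 samples of peritoneal metastasis, labelled by tissue as peritoneum, in 4 groups of 6: a control labelled with no treatment, propionate, butyrate, and a combination group given propionate and butyrate. Both agents are short-chain fatty acids made by gut bacteria, and butyrate has the longer carbon chain. The series title places the samples in work on mannose, anti-PD-1 therapy and ovarian cancer. Doses, times, the tumour line, the strain and age of the mice and any anti-PD-1 treatment are not given in the labels, so the agents cannot be said to be matched in dose. Nothing states that the replicates of a group came from separate animals, so a p-value here speaks of the spread among these libraries, and that spread may be technical.

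Killing by natural killer (NK) cells and cytotoxic T cells rests on granules that are emptied towards the target. Perforin, the product of Prf1, opens the target's membrane, and granzymes, which are serine proteases, enter and cut proteins inside. Granzyme B starts apoptosis through caspases, and granzyme A is a tryptase that kills by other routes. Nkg7 encodes a protein of the granule membrane needed for normal degranulation. Klrk1 encodes NKG2D, a receptor for stress ligands on tumour and infected cells, Klrd1 encodes CD94, which pairs with NKG2 proteins to read a non-classical class I molecule, and Ncr1 encodes NKp46, a receptor used to identify NK cells. Ifng encodes interferon gamma, which these cells release and which raises antigen presentation in the cells around them.

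The stretches of DNA just upstream of these genes are shown because the set is defined by a shared cell programme, in which transcription factors of the RUNX and T-box families are known to act. For 8 of the 9 genes, all but Klrd1, a promoter window was matched by symbol in RefSeq on build GRCm38.p6. That is not the build of the expression table, so the windows are used for sequence alone. The 250 bases before the annotated start are printed 5′ to 3′ on the gene's own strand for 5 genes, with capitals marking the core RUNX letters (TGTGGT, or ACCACA on the other strand) and the core T-box letters (GGTGTGA, or TCACACC on the other strand), 2 motifs that do not overlap here.
Gzma (chr13:113100982-113101231, minus strand): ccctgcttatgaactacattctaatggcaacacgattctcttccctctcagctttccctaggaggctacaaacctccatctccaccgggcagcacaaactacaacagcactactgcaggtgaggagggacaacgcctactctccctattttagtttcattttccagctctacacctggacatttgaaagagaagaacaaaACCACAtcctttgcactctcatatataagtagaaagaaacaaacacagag
Gzmb (chr14:56262335-56262584, minus strand): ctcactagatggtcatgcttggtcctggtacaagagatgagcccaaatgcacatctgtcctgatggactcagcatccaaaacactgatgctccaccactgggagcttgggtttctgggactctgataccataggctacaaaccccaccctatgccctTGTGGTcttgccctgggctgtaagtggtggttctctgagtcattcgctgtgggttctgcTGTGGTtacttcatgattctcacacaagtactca
Gzmk (chr13:113180966-113181215, minus strand): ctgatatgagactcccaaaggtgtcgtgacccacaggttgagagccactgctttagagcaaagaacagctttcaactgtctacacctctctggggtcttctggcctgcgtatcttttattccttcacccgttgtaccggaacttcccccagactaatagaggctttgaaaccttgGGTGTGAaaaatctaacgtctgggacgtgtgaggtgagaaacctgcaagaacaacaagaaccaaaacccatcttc
Nkg7 (chr7:43436888-43437137, plus strand): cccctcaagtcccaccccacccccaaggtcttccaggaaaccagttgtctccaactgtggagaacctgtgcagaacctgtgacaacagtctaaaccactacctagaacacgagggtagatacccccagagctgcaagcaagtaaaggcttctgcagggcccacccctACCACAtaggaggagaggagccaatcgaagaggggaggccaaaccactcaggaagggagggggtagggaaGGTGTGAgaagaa
Klrk1 (chr6:129623865-129624114, minus strand): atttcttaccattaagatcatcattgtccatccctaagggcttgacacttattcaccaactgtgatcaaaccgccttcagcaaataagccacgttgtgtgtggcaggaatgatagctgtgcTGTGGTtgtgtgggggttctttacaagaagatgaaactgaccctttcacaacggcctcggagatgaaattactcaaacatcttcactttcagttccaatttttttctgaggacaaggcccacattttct

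Searched over both strands and the full window of 250 bases before to 50 after the start, the RUNX letters were in 6 of the 8 matched genes (Gzma, Gzmb, Prf1, Nkg7, Klrk1 and Ncr1), and in 16.8% of 32851 RefSeq windows of the same length. The T-box letters were in 2 of the 8, Gzmk and Nkg7, and in 3.98% of all windows. In Gzmb the RUNX letters occur at 2 places, 93 and 34 bases before the start, and in Gzma at 50 bases before it. A match of letters is a description of the sequence and no evidence of binding in these samples.

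Expression is given as TPM, a length-scaled share of each library's transcripts and the deposited unit, summed over the transcript rows of a gene name. TPM sums to the same total in every library and keeps no sequencing depth, so depth is unknown and no counting interval can be given. The libraries held 12618 to 15418 gene names at 1 TPM or more. Combination replicate 5, numbered 6 in the deposited columns, stood apart from the other 23. It held 4132 TPM of Glycam1, a gene of lymph node vessels, against 0.51 TPM or less elsewhere. Its level of the B cell gene Cd79a was 275 TPM and that of the T cell gene Cd8a 67.3 TPM, against 3.62 and 3.17 TPM at most in the others. The muscle actin gene Acta1 was at 2.52 TPM, where the next lowest library had 5384 TPM. Wt1, 1 of the 5 mesothelium markers, was at 0. It did not speak for that list, whose sum averaged 269.6 TPM in the combination group with this library and 254 TPM without it. Comparisons that use the combination group are therefore given with and without replicate 5. In bulk tissue, fewer cells of a type and less RNA per cell cannot be told apart.

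Gzma was highest in the combination group. Its level was 1.66, 9.21, 6.96, 3.76, 13.0 and 1.07 TPM in combination replicates 1 to 6, a mean of 5.95 ± 4.66 (SD, n = 6), or 4.53 ± 3.49 without replicate 5 (n = 5). Control libraries ran from 0.49 through a median of 0.94 to 1.76 TPM, with a mean of 1.04 ± 0.48. Combination replicates 2 to 5 lay above every control library, and replicates 1 and 6 lay within the control range. The ratio of the means was 5.75, or 4.38 without replicate 5, and 33 of 36 pairs of a combination and a control library had the combination library higher. On the scale of log2(TPM + 1), where folds of genes near 0 are understated, the difference was 1.49 ± 0.37 (SE), and 1.22 ± 0.34 without replicate 5.

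Neither Gzma value passed over all genes tested (limma, adjusted p = 0.202 with 24 libraries and 0.326 with 23). Gzma passed when TPM was rescaled by median-of-ratios (adjusted p = 0.0442) or quantile normalization (0.0277), or when libraries were weighted (0.00611), within a range of 0.00611 to 0.568 over 9 alternatives. Without replicate 5 the weighted fit alone called it (adjusted p = 0.0123, range 0.0123 to 0.509). That fit called 5786 of 15163 genes with 24 libraries and 6747 of 15057 with 23, so passing it sets Gzma little apart. Median-of-ratios scaling called 46 genes and quantile normalization 41.

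Gzmb behaved alike in direction at a lower level. Combination replicates 1 to 6 held 2.29, 3.82, 1.59, 1.22, 3.54 and 0.09 TPM, a mean of 2.09 ± 1.42 (SD, n = 6), and 1.80 ± 1.38 without replicate 5. Control libraries ran from 0.05 to 0.79 TPM with a median of 0.23. Thus 5 of the 6 combination libraries exceeded every control library, and replicate 6 lay below 5 of the 6 controls. The ratio of the means was 7.09, or 6.11 without replicate 5, with 31 of 36 pairs higher. Only 7 libraries held 1 TPM or more of Gzmb, 5 of them from the combination group, so the gene entered the test mainly through that group.

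The log2 difference of Gzmb was 1.12 ± 0.27 (SE; limma, adjusted p = 0.202), and 0.97 ± 0.27 without replicate 5 (adjusted p = 0.326). Leaving out combination replicate 6, the library lowest in Gzmb in that group, gave 1.39 with an adjusted p of 0.0406, the smallest of the 12 fits without 1 library (up to 0.447). Quantile normalization gave an adjusted p of 0.0334 and weights per library 0.00576, in a range of 0.00576 to 0.322 over 8 alternatives. Without replicate 5 the weights gave 0.00934, and no other alternative passed. Gzmb is one of a family of similar granzyme genes, and how reads shared between copies were assigned is not stated.

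Gzmk, the third granzyme gene, differed least. The combination libraries held 1.15, 0.59, 0.65, 0.81, 0.60 and 0 TPM and the controls 0 to 1.49 TPM with a median of 0.42. All 6 combination values lay inside the control range, and the highest library of all was control replicate 5. Means were 0.63 ± 0.37 against 0.49 ± 0.54 TPM (SD, n = 6), and the log2 difference was 0.16 ± 0.22 (SE), with a 95% interval from -0.29 to 0.62 in the fit of all names without a filter on low values. Without replicate 5 it was 0.16 ± 0.24.

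Prf1 depended on replicate 5. The combination libraries held 0.12, 0.81, 0.92, 0.50, 5.98 and 0.03 TPM, and the controls 0.09 to 0.57 TPM with a median of 0.21. Replicates 2, 3 and 5 lay above all controls, and replicates 1, 4 and 6 did not. The ratio of the means was 5.77 with replicate 5 and 1.97 without it, and the log2 difference 0.60 ± 0.29 and 0.22 ± 0.14 (SE; limma without a filter, adjusted p = 0.551 and 0.601).

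Nkg7 was the most abundant of the set in the combination group, where the 6 libraries held 4.26, 11.4, 8.61, 11.2, 49.5 and 0.62 TPM. Controls ran from 0.48 to 3.72 TPM with a median of 2.48. The first 5 combination libraries exceeded every control, and replicate 6 exceeded 1 control. The ratio of means was 6.54, or 3.31 without replicate 5, and the log2 difference 1.65 ± 0.59, or 1.16 ± 0.53 (SE; limma, adjusted p = 0.340 and 0.537).

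Among the receptors, Klrk1 gave 3.83, 7.10, 11.6, 10.5, 19.95 and 1.74 TPM in the combination libraries and 1.19 to 3.77 TPM, median 2.63, in controls. Again 5 of 6 exceeded all controls and replicate 6 did not. Its log2 difference was 1.28 ± 0.45, and 1.01 ± 0.45 without replicate 5 (SE; limma, adjusted p = 0.340 and 0.537).

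Klrd1 stood at 2.58, 4.81, 6.51, 6.53, 37.2 and 1.01 TPM with the combination, against 0.47 to 3.21 TPM, median 2.98, in controls. Here 4 libraries exceeded all controls, and most of the difference of means came from replicate 5: the ratio was 4.06 with it and 1.78 without it. The log2 difference was 1.07 ± 0.56, then 0.57 ± 0.48 (SE; limma, adjusted p = 0.508 and 0.556).

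Ncr1 was low everywhere, at 0.44, 1.07, 1.03, 0.67, 2.85 and 0.05 TPM with the combination and 0.05 to 0.35 TPM, median 0.11, in controls. The first 5 combination libraries again lay above every control and replicate 6 level with the lowest. Its ratio of means was 6.64, or 4.25 without replicate 5, and the log2 difference 0.69 ± 0.21, or 0.48 ± 0.16 (SE; limma without a filter, adjusted p = 0.398 and 0.525).

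Ifng, the secreted product of these cells, held 0.28, 1.19, 1.12, 1.97, 1.17 and 0 TPM in the combination libraries, against 0.20 to 0.62 TPM, median 0.51, in controls. Replicates 2 to 5 exceeded every control, and replicate 6 was listed at 0. The log2 difference was 0.38 ± 0.22, and 0.33 ± 0.23 without replicate 5 (SE; limma without a filter, adjusted p = 0.580 and 0.601). Replicate 5, the highest library for 6 of the other genes, was the third highest for Ifng.

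**Figure D1:**
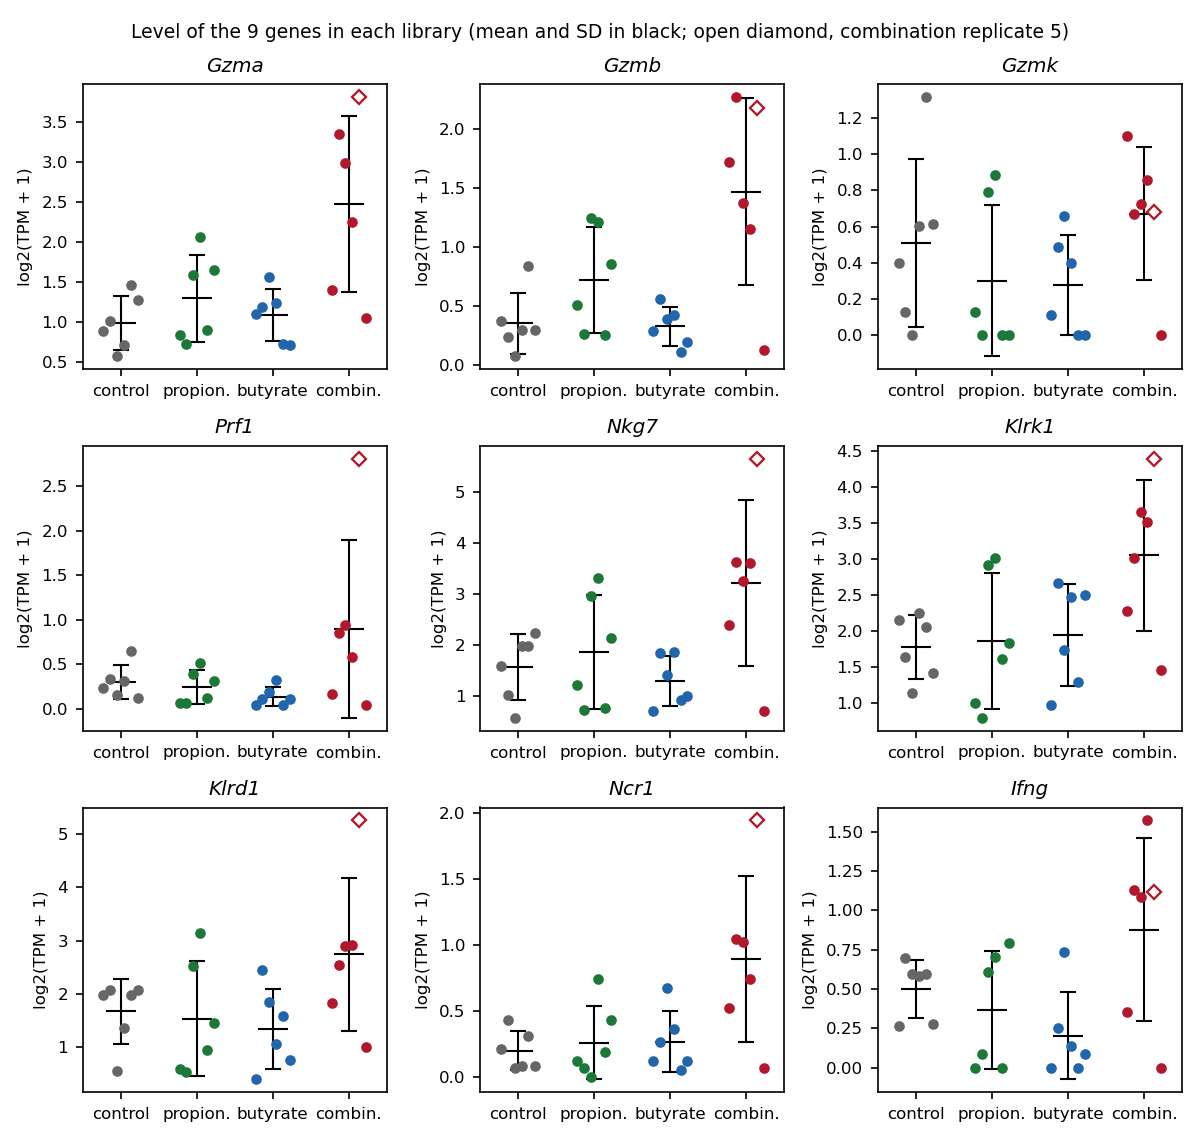
Level of each of the 9 genes as log2(TPM + 1) in each library of the control, propionate, butyrate and combination groups (6 libraries each; black, mean and SD; open diamond, combination replicate 5; each panel has its own vertical scale). The combination points of Gzmb, Nkg7, Klrk1 and Ncr1 lie above all control points except for replicate 6, while those of Gzmk lie within the control range.

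Read across the set, the mean of the combination group was the highest of the 4 groups for 9 of 9 genes, with and without replicate 5, and the butyrate mean was the lowest for 6. The combination and control groups overlapped for all 9 genes. Summed over the 9, the combination libraries held 4.61 to 133.8 TPM with a median of 38.07, the controls 3.35 to 14.4 with a median of 10.5, the propionate libraries 2.87 to 30.97 with a median of 8.49 and the butyrate libraries 3.49 to 15.0 with a median of 9.10. Combination replicates 5, 2, 3 and 4 were the 4 highest of the 24 libraries, propionate replicates 4 and 3 the fifth and the sixth, and combination replicate 6 was number 20.

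No gene passed in combination against control: limma with adjustment over 15163 genes called 0, a percentage of 0, while 940 genes were higher and 622 lower where the unadjusted p is set under 0.05, and again 0 of 15057 without replicate 5 (632 higher and 681 lower). Since 4 of the 9 genes (Gzmk, Prf1, Ncr1 and Ifng) did not reach 1 TPM in 6 libraries, counts over the set are from the fit of all 33090 names. There, 5 of 9 genes (Gzma, Gzmb, Nkg7, Klrk1 and Ncr1) were higher at an unadjusted p under 0.05, where 5.11% of all names were. Without replicate 5 the count was again 5 of 9, against 3.52%. All 9 log2 differences were above 0, as were 39.8% of all names, with a median of 1.07 against -0.01. Without replicate 5 all 9 remained above 0 (33.7% of all names), with a median of 0.57 against -0.02. The 9 stayed above 0 under median-of-ratios scaling and quantile normalization. Over the 15163 genes the median was -0.12 as deposited. Median-of-ratios scaling brought it to -0.02 and quantile normalization to 0.004.

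**Figure D2:**
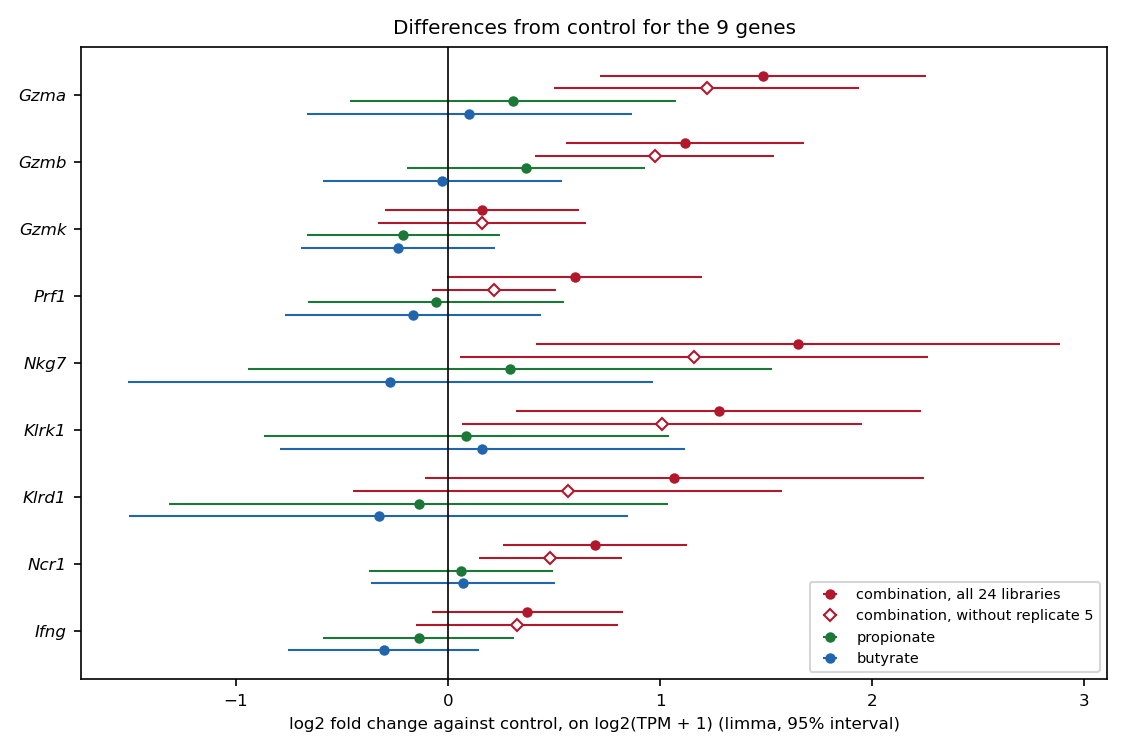
Log2 fold change of each gene against control with its 95% interval (limma, all names, scale of log2(TPM + 1)) for the combination with 24 libraries (filled red) and without replicate 5 (open red), for propionate (green) and for butyrate (blue). The red points are above 0 for all 9 genes and the green and blue intervals all include 0.

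Against each acid alone the combination group was also higher. In combination against propionate, all 9 differences were above 0 (64.4% of all names) and 8 of 9 had an unadjusted p under 0.05, against 6.13% of names. Without replicate 5 the count was 3 of 9 (Gzma, Gzmb and Ncr1), against 3.2%. In combination against butyrate, 8 of 9 had such a p, against 8.79%, and without replicate 5 it was 6 of 9 (Gzma, Gzmb, Prf1, Nkg7, Ncr1 and Ifng), against 4.16%. No gene passed over all genes in either comparison (0% of 15163), and for the 9 genes limma's adjusted p was 0.317 or more with 24 libraries. Leaving out combination replicate 6 brought Gzmb past the threshold against butyrate, at a log2 difference of 1.41 and an adjusted p of 0.0309. That call rests on dropping the library lowest in Gzmb, for a gene that was tested mainly through the combination group. These comparisons and that with control share the combination libraries.

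Gzma shows the size of the gap to each acid. Propionate libraries held 0.66 to 3.19 TPM with a median of 1.45 and butyrate libraries 0.64 to 1.97 with a median of 1.23, so that 4 combination libraries lay above every library of either group. Its log2 difference was 1.18 ± 0.37 against propionate and 1.38 ± 0.37 against butyrate (SE), or 0.91 ± 0.34 and 1.12 ± 0.34 without replicate 5. For Gzmb, propionate libraries held 0.19 to 1.37 TPM with a median of 0.62 and butyrate libraries 0.08 to 0.47 with a median of 0.27. Its log2 differences were 0.75 ± 0.27 and 1.14 ± 0.27, and 0.61 ± 0.27 and 1.00 ± 0.27 without replicate 5. Ifng was at 0 in 2 propionate and 2 butyrate libraries, and its differences were 0.51 ± 0.22 and 0.68 ± 0.22, or 0.46 ± 0.23 and 0.63 ± 0.23.

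Propionate alone gave small and scattered log2 differences from control. Of the 9 genes 5 were above 0 and 4 below, from -0.21 (Gzmk) to 0.37 (Gzmb), with a median of 0.06, and 27.8% of all names were above 0. At an unadjusted p under 0.05, 0 of 9 were higher, as 0.798% of all names were, or lower, as 6.06% were, and limma called 0 of 15163 genes (0%), with 66 higher and 1385 lower at that p. The 6 propionate libraries were spread widely. Replicates 1 to 6 held 1.33, 0.66, 6.76, 8.96, 0.70 and 3.39 TPM of Nkg7, where the highest control had 3.72. For Klrd1 they held 0.52, 0.46, 4.78, 7.82, 0.94 and 1.76 TPM, where the highest control had 3.21. Replicates 3 and 4 were thus above every control for both genes. For Gzma and Gzmb, 3 of 6 propionate libraries lay above every control, with 25 and 27 of 36 pairs higher. Their ratios of means to control were 1.56 and 2.43. For Gzmk and Prf1, 0 of 6 lay above every control, with 11 and 13 of 36 pairs higher and ratios of 0.57 and 0.81. The 6 T cell receptor complex markers summed to 4.60, 5.52, 48.4, 48.1, 5.24 and 13.2 TPM in the same order, and Krt8, Krt18, Epcam, Pax8 and Muc16, keratin and mucin genes of epithelium and mesothelium for the most part, to 2.49, 6.09, 442, 286, 3.69 and 20.4 TPM. The part of these markers in the level of the 9 genes was not tested.

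Butyrate alone gave 3 of 9 genes above control and 6 below, from -0.32 (Klrd1) to 0.16 (Klrk1), with a median of -0.16, and 30.0% of all names were above control, a share near that of the set. At an unadjusted p under 0.05, 0 of 9 were higher or lower, with 1.49% of all names higher and 18.2% lower. Limma called 0 of 15163 genes (0%), with 181 higher and 5325 lower at that p. The lowest means were for Prf1, 0.10 ± 0.08 TPM against 0.24 ± 0.17 (SD, n = 6), and for Ifng, 0.17 ± 0.25 against 0.43 ± 0.18. For both, 6 of 36 pairs had the butyrate library higher, and the log2 differences were -0.16 ± 0.29 and -0.30 ± 0.22 (SE). The median of all 15163 genes was itself at -0.38 with butyrate and -0.30 with propionate. Median-of-ratios scaling moved both to 0.01, and it placed 5 and 6 of the 9 genes above control. Quantile normalization moved the medians to 0.03 and 0.04 and placed 6 of 9 above control in both.

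Set directly against propionate, butyrate was below it for 7 of 9 genes, with a median log2 difference of -0.16, and 37.9% of all names were above propionate. The differences were -0.21 for Gzma (95% interval -0.97 to 0.55), -0.40 for Gzmb (-0.96 to 0.17) and -0.56 for Nkg7 (-1.78 to 0.66). At an unadjusted p under 0.05, 0 of 9 were higher or lower, while 0.967% of all names were higher and 0.737% lower. Limma called 0 of 15163 genes (0%; 25 higher and 82 lower at that p). Each interval leaves room for a difference of either sign, so the acids were not shown to act alike or to differ on these genes.

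The interaction, which is the combination minus propionate minus butyrate plus control, was above 0 for all 9 genes, as it was for 72.9% of all names. Its median was 0.82 over the set and 0.10 over all names, and 1 of 9 (Ifng, 0.81 ± 0.31) was higher at an unadjusted p under 0.05, where 17.3% of all names were. Without replicate 5 it was 2 of 9 (Prf1 and Ifng), against 12.5%. Limma called 0 of 15163 genes (0%; 5275 higher and 144 lower at that p). The share of the 9 genes past that p was thus below that of all names with 24 libraries. The median over the 15163 genes, 0.62 as deposited, came to 0.03 under median-of-ratios scaling and -0.01 under quantile normalization, and all 9 genes stayed above 0 in both.

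T cell and leukocyte markers also reached higher in the combination libraries than in controls, with ranges that overlapped. Summed over 6 of 6 detected T cell receptor complex markers, controls held 2.01 to 23.5 TPM and combination libraries 4.92 to 61.4 TPM without replicate 5, which held 792. The pan-leukocyte list (Ptprc, Coro1a and Laptm5, 3 of 3 detected) ran from 51.2 to 147 TPM in controls and from 79.3 to 212 TPM in the same 5 combination libraries, with 887 in replicate 5. CD8 T cell markers (2 of 2 detected) summed to 0.26 to 2.12 TPM in controls and 0.13 to 5.56 TPM in those 5, with 153 in replicate 5. NK cell markers outside the set (6 of 6 detected, with Khdc1a at 0 in all 6 controls) summed to 0.87 to 2.69 TPM in controls and 1.78 to 4.10 TPM, with 13.4 in replicate 5. Itga2 was the largest part of that sum in every control, at 0.42 to 1.7 TPM. There Klrb1c, Eomes, Klre1 and Klri2 were each at 0.57 TPM or less. Gamma delta T cell markers (2 of 5 genes found in the table, both detected) ran from 0.30 to 2.74 TPM and from 0.81 to 7.37 TPM, with 9.15 in replicate 5. Their part in the levels of the 9 genes was not tested.

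**Figure D3:**
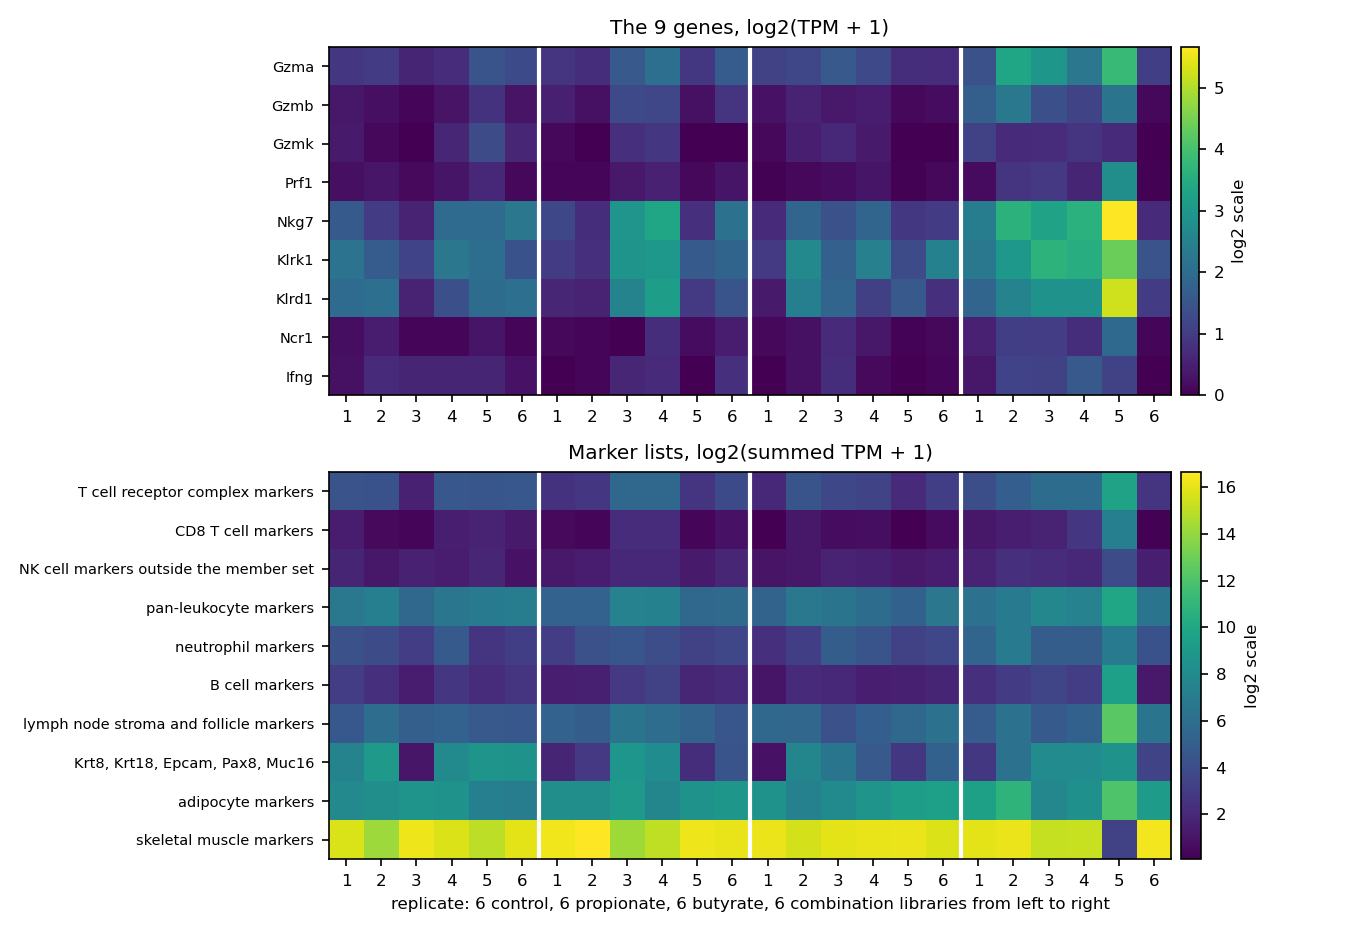
Heat maps of the 9 genes, as log2(TPM + 1), and of 10 marker lists, as log2(summed TPM + 1), in the 24 libraries, ordered as control, propionate, butyrate and combination with replicates 1 to 6 in each. Combination replicate 5 is brightest for Nkg7, Klrd1 and the B cell, T cell and lymph node lists and darkest for skeletal muscle, and combination replicate 6 is dark for most of the 9 genes.

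Dividing each level by that of Ptprc, the pan-leukocyte gene of CD45, in the same library narrowed the difference for Gzma, Gzmb and other members of the set. Gzma per 100 TPM of Ptprc was 18.3 ± 15.7 TPM with the combination (20.8 ± 16.1 without replicate 5) and 7.40 ± 3.16 in controls (SD). Replicate 5 was at 5.88, within the control range of 4.54 to 12.4, and replicate 2 was highest at 48.5. Gzmb per 100 TPM of Ptprc was 8.51 ± 9.05 (9.90 ± 9.38) against 1.96 ± 1.40 TPM, and it came from replicates 1 and 2, at 19.9 and 20.1, while the other 4 lay between 0.68 and 4.74. Klrd1 per 100 TPM of Ptprc was 18.8 ± 6.22 (19.3 ± 6.86) against 16.7 ± 7.82 TPM, and Prf1 2.10 ± 1.43 (1.98 ± 1.57) against 1.62 ± 0.88. Ifng, at 3.17 ± 2.76 (3.70 ± 2.73) against 3.15 ± 1.54, was near control on this scale. So was Gzmk, at 3.00 ± 3.66 (3.54 ± 3.81) against 3.27 ± 3.17. Nkg7 was at 31.2 (32.9) against 15.8, Klrk1 at 27.0 (30.5) against 18.1 and Ncr1 at 2.73 (3.02) against 0.99. These ratios are described without a test.

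Per 100 TPM of the T cell genes Cd3d, Cd3e and Cd3g together, the picture changed again. Gzma was 41.2 ± 32.4 TPM with the combination (48.5 ± 30.3 without replicate 5), 28.7 ± 23.7 in controls, 30.5 ± 13.8 with propionate and 69.4 ± 65.0 with butyrate (SD, n = 6). Gzmb was 16.9 ± 19.1 (20.03 ± 19.6), 6.00 ± 3.21, 11.7 ± 5.95 and 12.9 ± 11.6 TPM in the same order. Prf1 was 3.35 ± 1.90 (3.57 ± 2.03) against 6.71 ± 5.61 in controls, and Klrd1 40.4 ± 22.9 (45.8 ± 21.1) against 53.8 ± 22.6, both below control on this scale. Gzmk, at 5.97 (7.12) against 7.44, and Ifng, at 4.92 (5.82) against 19.3, were below control too. The highest control for Ifng was at 78.5. Klrk1, at 62.8 (73.9) against 71.6, was below control with replicate 5 and above it without. Nkg7, at 56.4 (63.9) against 45.5, and Ncr1, at 5.11 (5.92) against 4.20, were above control. Combination replicate 5 had the lowest Gzma per T cell transcript of all combination libraries, at 4.86, and the lowest Gzmb, at 1.32. Cd3 genes were low in several libraries, which makes such ratios unsteady, as in control replicate 3 and combination replicate 6 with Gzma at 75.4 and 82.3.

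**Figure D4:**
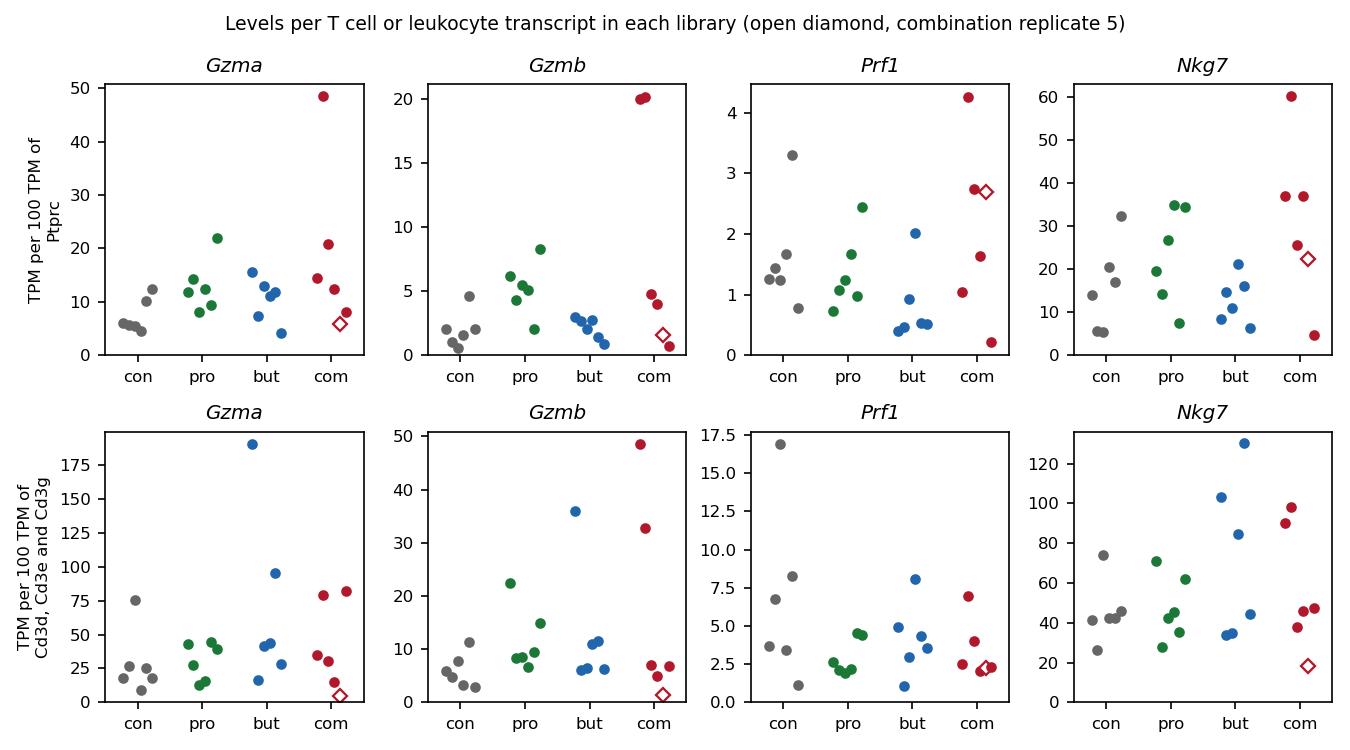
Gzma, Gzmb, Prf1 and Nkg7 per 100 TPM of Ptprc (upper row) and per 100 TPM of Cd3d, Cd3e and Cd3g together (lower row) in each library (con, control; pro, propionate; but, butyrate; com, combination; open diamond, combination replicate 5). The combination libraries spread widely on both scales, and the diamond lies at 1.60 for Gzmb per Ptprc, within the control range.

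Granzyme B is also made by other cells, and their markers were present. Mast cell markers (6 of 6 detected) summed to 51.7 to 179.6 TPM in controls and 85.6 to 258 TPM with the combination. Plasmacytoid dendritic cell markers (4 of 4 detected) summed to 458 to 1328 TPM and 205 (replicate 5) to 1332 TPM. That sum was mostly Cox6a2, a gene that skeletal muscle also expresses, at 346 to 1279 TPM in controls and 3.47 TPM in replicate 5. The more specific Siglech ran from 0.28 to 1.20 TPM and from 0.39 to 2.69 TPM, with 31.8 TPM in replicate 5. Neutrophil markers (6 of 6 detected) summed to 5.33 to 26.2 TPM in controls and 18.5 to 123 TPM with the combination, and were highest in replicates 2 and 5. B cell markers were at 1.67 to 7.49 TPM in controls and 1.35 to 10.6 TPM in the combination libraries other than replicate 5, which held 699. The list fixed for epithelial and ovarian carcinoma was at 1.11 to 527 TPM in controls and 5.91 to 379 TPM (replicate 5) with the combination. Most of it was Krt8, Krt18 and Muc16, which mesothelium also expresses. Its more specific genes Epcam and Pax8 were at 0.83 TPM or less in every library, except for Epcam at 11.5 and 62.6 TPM in combination replicates 2 and 5. Adipocyte markers (5 of 5 detected) summed to 129.7 to 407 TPM in controls. With the combination they summed to 214 to 1838 TPM without replicate 5, which held 4434. The part of these cells in the result was not tested.

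The members were uneven in how many transcript rows carried them. The 9 genes had 26 rows in all. Gzmb had 1 row, the leading row of Gzma held 99.4% of its TPM over the 24 libraries, that of Prf1 91.6% and that of Klrd1, which has 5 rows, 81.8%. Klrk1 was spread over 6 rows, the leading one with 47.4%, between 10.9 and 83.3% of the gene in single libraries. How reads were divided between such rows is not stated, so levels are given for the gene alone.

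The make-up of the set also shifted. Nkg7, Klrk1 and Klrd1 took 22.3, 26.1 and 24.6% of the summed TPM of the 9 genes in controls. Gzma took 10.6% there and 16.5% in the combination libraries without replicate 5, and Gzmb 3.01 and 6.56%. The shares of Gzma and Gzmb were 12.4 and 5.50% with propionate and 13.4 and 2.96% with butyrate. Over the combination libraries with replicate 5 included they were 13.2 and 4.63%. In replicate 5 the shares were 9.74 and 2.65%, with Nkg7 at 37.0% and Klrd1 at 27.8%. The share of Klrk1 there was 14.9%, so that Nkg7 and Klrd1 took more of the sum than in controls and Klrk1, Gzma and Gzmb less.

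Other genes of the pathway were taken from 9 lists with 81 genes. Of these 54 were tested, 40 lay above control in the combination group and 0 passed, where 34.1% of all 15163 genes lay above control. Without replicate 5, 35 of 53 lay above control, where 30.0% of 15057 genes did, and 0 passed. Some of the tested genes, such as Klrg1 and Zap70, entered the test mainly through the combination group, which favours genes that are high there. For granule contents, release and granzyme inhibitors, 6 of 10 tested genes were above control and 4 below. Rab27a, a GTPase that docks granules at the membrane, averaged 5.25 ± 3.75 TPM, or 3.72 ± 0.42 without replicate 5, against 2.32 ± 0.34 (SD). All 6 combination libraries were at 3.33 TPM or more and all controls at 2.71 or less, and the log2 difference was 0.77 ± 0.23, or 0.51 ± 0.16 without replicate 5 (SE; limma, adjusted p = 0.259 and 0.386). Srgn, the proteoglycan that packs granule proteases, was at 0.78 ± 0.33 and 0.53 ± 0.30, and the protease gene Ctsw at 1.24 ± 0.53 and 0.63 ± 0.36. Lower in value were Serpinb6b, a granzyme A inhibitor, at -1.08, and Unc13d, a priming factor of granule fusion, at -0.76, both with unadjusted p above 0.2. Against the same controls Serpinb6b was at -1.70 with propionate and -1.66 with butyrate, and Unc13d at -1.49 and -1.74.

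Death ligands and receptors, the second route of killing, had 3 of 4 tested genes above control. Tnfsf10, which encodes TRAIL, averaged 9.57 ± 5.25 TPM (7.67 ± 2.71 without replicate 5) against 3.91 ± 0.60 in controls (SD). All 6 combination libraries were at 5.49 TPM or more and all controls at 4.64 or less, so that the groups did not overlap, as for Rab27a. All combination libraries lay above all controls for 0.633% of the 15163 genes, and for 0.79% of 15057 without replicate 5, and these genes were named for their small p. Its log2 difference was 0.99 ± 0.23, then 0.78 ± 0.19 (SE; limma, adjusted p = 0.189 and 0.281). Fas, the receptor for Fas ligand, was at 0.63 ± 0.16 and 0.49 ± 0.14 (adjusted p = 0.208 and 0.333), and its lowest combination library, at 9.31 TPM, lay below the highest control, at 9.97 TPM. The TRAIL receptor gene Tnfrsf10b was at -0.41 ± 0.26, then -0.52 ± 0.27. Fasl was below the filter, with 0.38 ± 0.40 TPM, or 0.23 ± 0.15 without replicate 5, against 0.25 ± 0.15 in controls (SD), so that its mean turned from above to below control.

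Of 13 further NK and lectin-like receptors, 9 were below the filter, and the 4 tested lay above control. One of these, Klrg1, was at 0.99 TPM or less in controls and 0.97 or less with butyrate, so it entered the test mainly through the combination group. Cd226, which encodes the activating receptor DNAM-1, averaged 5.41 ± 3.83 TPM (4.12 ± 2.41 without replicate 5) against 1.56 ± 0.33 (SD). Its combination libraries started at 2.24 TPM and its controls ended at 2.17 TPM, and the log2 difference was 1.15 ± 0.28, or 0.91 ± 0.24 (SE; limma, adjusted p = 0.202 and 0.326). Klrg1, an inhibitory receptor of mature effector cells, was at 0.71 ± 0.25 and Cd244a at 0.28 ± 0.20, and at 0.64 ± 0.26 and 0.19 ± 0.20 without replicate 5. Klrc1, which encodes NKG2A, the partner of CD94, was below the filter at 1.04 ± 1.14 against 0.38 ± 0.21 TPM (SD), or 0.59 ± 0.30 without replicate 5.

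Adaptors through which these receptors signal had 6 of 7 tested genes above control. Cd247, the zeta chain used by NKp46 and the T cell receptor, averaged 11.5 ± 18.99 TPM, or 3.80 ± 1.51 without replicate 5, against 1.21 ± 0.62 (SD). Its log2 difference was 1.67 ± 0.44, or 1.09 ± 0.22 (SE; limma, adjusted p = 0.219 and 0.269). Without combination replicates 5 and 6 together it passed, at 1.31 ± 0.20 and an adjusted p of 0.0177, beside the T cell receptor segment Trbv3. The kinase genes Zap70 and Syk were at 0.98 ± 0.41 and 0.71 ± 0.34. Without replicate 5, Syk was at 0.33 ± 0.24 and Zap70 was below the filter.

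Of 4 tested ligands of NKG2D and NKG2A, 1 lay above control and 3 below, near the 34.1% above control among all genes tested. Raet1d was at -1.01 ± 0.50, Raet1e at -1.22 ± 0.76 and Ulbp1 at -1.15 ± 0.76 (SE; limma, adjusted p = 0.491, 0.541 and 0.557). Without replicate 5 they were at -0.94 ± 0.53, -1.13 ± 0.81 and -1.16 ± 0.81. Propionate gave -1.02, -1.39 and -1.30 and butyrate -1.24, -1.64 and -1.44 for the same genes, against the same controls. Raet1e ran from 0.33 to 16.97 TPM in controls and from 0.28 to 10.3 TPM with the combination. The list of Krt8, Krt18, Epcam, Pax8 and Muc16 averaged 291 ± 186 summed TPM in controls, 127 ± 190 with propionate, 61.5 ± 78.6 with butyrate and 169 ± 158 with the combination (128 ± 134 without replicate 5; SD). Mesothelium markers (5 of 5 detected) averaged 553 ± 340, 258 ± 361, 120 ± 128 and 269.6 ± 263 TPM (254 ± 291 without replicate 5) in the same order, and their part in these values was not tested.

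Inducing cytokines and their receptors, 3 cytokine and 6 receptor genes among the 9 tested, had 8 above control. Il15, which NK cells need to survive, averaged 14.5 ± 2.59 TPM against 8.82 ± 2.96 (SD), a log2 difference of 0.69 ± 0.19, or 0.80 ± 0.18 without replicate 5 (SE; limma, adjusted p = 0.227 and 0.269). Against the same controls its log2 difference was 0.73 with propionate and 0.66 with butyrate. The receptor chain genes Il2rb and Il2rg were at 1.03 ± 0.49 and 0.95 ± 0.53, then 0.56 ± 0.40 and 0.41 ± 0.42. Transcription factors of cytotoxic cells had 4 of 5 tested genes above control, with Zeb2 at 0.56 ± 0.24 and Id2 at 0.69 ± 0.30, or 0.42 ± 0.23 and 0.52 ± 0.29 without replicate 5. Nfil3, a factor of NK cell development, lay below, at 20.4 ± 7.85 against 35.7 ± 6.96 TPM (SD), a log2 difference of -0.87 ± 0.28, or -0.62 ± 0.24 without replicate 5 (SE; limma, adjusted p = 0.292 and 0.509). Against the same controls Nfil3 was at -0.86 with propionate and -0.90 with butyrate. Tbx21 and Eomes, the T-box factors, were below the filter, Tbx21 at 1.11 ± 0.90 TPM (0.77 ± 0.42 without replicate 5) against 0.35 ± 0.15 (SD). Eomes was at 0.79 ± 1.39 TPM, and at 0.23 ± 0.13 without that library, against 0.13 ± 0.09 in controls.

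Downstream of Ifng, 8 of 10 tested genes of the interferon gamma receptor and its signalling lay above control, with a median of 0.15, and 5 of 10 without replicate 5, with a median of -0.001. The chemokine gene Cxcl9, which attracts activated T cells, held 0.93 to 59.5 TPM with the combination and 0.98 to 19.3 TPM in controls, a log2 difference of 1.02 ± 0.86, or 0.92 ± 0.92 without replicate 5 (SE). Irf1 was at 0.46 ± 0.43 and Ifngr1 at 0.40 ± 0.26, and without that library at 0.25 ± 0.44 and 0.21 ± 0.25. Granzyme genes outside the set were low or at 0. Gzmd, Gzmf, Gzmg and Gzmn were at 0 in all 24 libraries and Gzme in 23. Gzmm, the 1 of 7 that was tested, was at 1.32 ± 0.33 against 1.38 ± 0.65 TPM (SD), a log2 difference of -0.005 ± 0.20, or -0.05 ± 0.21 without replicate 5 (SE).

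The genes whose pattern was most like that of the set were found by correlating each tested gene with the mean log2(TPM + 1) of the 9. Ccl5, Il2rb, Calhm6, Itgal, H2-Q4, Serpina3f and Ms4a4b were among the 10 highest both over all 24 libraries (Pearson r = 0.954 to 0.967) and over the 23 without combination replicate 5 (0.928 to 0.946). Ccl5 encodes a chemokine of cytotoxic cells, Il2rb a receptor chain for interleukins 2 and 15, Itgal a chain of the adhesion receptor LFA-1, and H2-Q4 a class I molecule. The 9 genes also ran together: over their 36 pairs r had a median of 0.76 with 24 libraries (0.38 to 0.92) and 0.73 with 23 (0.49 to 0.89). The highest was Gzma with Ncr1 in both, and the lowest Gzmk with Prf1 with 24 libraries and Gzmk with Ncr1 with 23. Cell content and regulation cannot be told apart in bulk tissue, so these values describe the libraries alone.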

How the data were processed

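RNA from 24 libraries in 4 groups of 6 was measured by sequencing. The authors deposited TPM values for 149132 transcript rows. Reads were processed with fastp, HISAT2 and StringTie on mm39, per the submitters' processing notes, whose versions the sources used here do not give. TPM keeps no depth, so no counting error can be set. Columns were matched to samples by the description label, and replicates are numbered as in the titles. Rows were summed by gene name, and the 1001 rows without one, 0.174 to 0.47% of TPM, were left out.

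Levels were taken as log2(TPM + 1). Limma 3.58.1 (R 4.3.3; trend and robust settings) was fitted to all 24 libraries, and again to 23, over the 15163 genes with 1 TPM or more in at least 6 libraries, with Benjamini-Hochberg adjustment at 0.05, and was tested on simulated data. Members below that filter were read from a fit of all 33090 names above 0. The members and gene lists were chosen with earlier results of these data known. Besides the 9 members, up to 3 tested genes of smallest p were named in each pathway list, and the genes most like the members by correlation. Serpinb6b, Unc13d, pathway genes below the filter and genes called in single alternatives were chosen after their values were seen. Alternatives changed the pseudocount, filter, scaling, weights, blocks and libraries used.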

Additional observations from a re-analysis of the deposited data

Results flagged for a closer look

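In 36 groups of 6 libraries, 1 for each gene in each group, 8 held a library whose gap to its nearest neighbour was over 0.625 of the group's range, the 95% critical value of Dixon's test. For normally distributed values, chance gives about 1 in 20 such groups. The gaps were taken on TPM without a log scale, and TPM of low genes need not be so distributed. All 8 gaps were at the highest end of their group. The count of 8 in 36 therefore cannot be read against that rate. The 36 groups are also not independent, since the genes share libraries. Combination replicate 5 was the one for 4 genes. It held 5.98 TPM of Prf1, where the next library had 0.92, and 49.52 TPM of Nkg7, where the next had 11.44. For Klrd1 it held 37.19 TPM against 6.53, and for Ncr1 2.85 TPM against 1.07. It was not apart for Gzma, Gzmb, Gzmk, Klrk1 or Ifng. The same library held 699 summed TPM of B cell markers and 8.79 of skeletal muscle markers, and the part of either in these levels was not tested.

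Control replicate 5 was apart for 3 genes. It held 0.79 TPM of Gzmb, where the next control had 0.29, 1.49 TPM of Gzmk, where the next had 0.53, and 0.57 TPM of Prf1, where the next had 0.26. Butyrate replicate 3 held 0.66 TPM of Ifng, and the next butyrate library 0.19 TPM.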

How the results depend on the processing

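The direction and call of all results examined were kept with a filter at 5 TPM (23 results), no filter (48), only the compared groups in the fit (64), and no trend or robust setting (80). Genes called in combination against control, 0 as reported, were 46 with median-of-ratios scaling (44 higher and 2 lower) and 41 with quantile normalization (40 higher and 1 lower). Weights per library, which were lowest for combination replicate 5 (0.126), propionate replicates 3 (0.127) and 4 (0.181) and control replicate 3 (0.260), gave 5786 there, 6747 without combination replicate 5, 5026 in combination against propionate, 572 in combination against butyrate, 11434 in propionate against control, 10256 in butyrate against control and 10982 for the interaction. With these weights 5 members were called in combination against propionate, where 5026 of 15163 genes were. In combination against butyrate 2 were called (Gzma and Gzmb), where 572 of 15163 genes were. For the interaction 7 were called, where most genes were (10982 of 15163). Of these, Gzmk and Ifng were read from the fit of 33090 names. Klrd1 was called lower with propionate than in control (-0.79, limma, adjusted p = 0.0202), as were 10003 of 15163 genes. The cause was not tested.

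Nothing in the labels states that library numbers pair the samples, and whether they do was not settled. Deviations of same-numbered libraries correlated from -0.865 to 0.737 over 36 pairs by title number, with a median of -0.073 and 16 pairs over 0.1. By library number they ran from -0.39 to 0.70 over 27 pairs, with a median of 0.24 and 18 pairs over 0.1. A replicate block by title number changed no call. A replicate block by library number gave 7903 genes in butyrate against control, 5 in combination against butyrate (Gbp5, Gm12250, Psmb10, Tgtp1 and Zbp1) and 5426 for the interaction, all 0 without it. It reversed Gzma (-0.20), Klrk1 (-0.050) and Ncr1 (-0.0013) in butyrate against control, Klrk1 (-0.16) and Ncr1 (-0.081) in butyrate against propionate, and Klrd1 (0.026) in propionate against control.

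Other reversals were in comparisons of the acids alone. In butyrate against control, Gzmb was at 0.074 and Nkg7 at 0.020 with median-of-ratios scaling, and Gzmb at 0.15, Nkg7 at 0.033 and Klrd1 at 0.00047 with quantile normalization. In propionate against control, Klrd1 was at 0.051 and 0.12 with these, and weights gave Gzma -0.0098, Klrk1 -0.48 and Nkg7 -0.76. In butyrate against propionate, Gzmk was at 0.039 with median-of-ratios scaling, 0.0097 with quantile normalization, 0.13 with a pseudocount of 0.1 and 0.15 with weights, Ncr1 at -0.0026 with quantile normalization, and weights gave Gzma 0.11, Klrd1 0.18 and Nkg7 0.29. The cause was not tested.

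Leaving out 1 library at a time gave 0 to 5657 genes in butyrate against control (most without control replicate 3), 0 to 5631 for the interaction (most without propionate replicate 3), 0 to 1 in combination against butyrate (Dok2 without butyrate replicate 6, Gzmb without combination replicate 6), and 0 to 2 in combination against control with combination replicate 5 (Gzmb and Galnt15 without replicate 6) or without it (Cd247 and Trbv3 without replicate 6). Members that changed sign ran from -0.083 to 0.071 (Gzmb) and -0.012 to 0.12 (Ncr1) in butyrate against control, from -0.10 to 0.093 (Gzmk), -0.41 to 0.13 (Klrd1), -0.14 to 0.31 (Klrk1) and -0.072 to 0.11 (Ncr1) in butyrate against propionate, and from -0.46 to 0.063 (Klrd1), -0.14 to 0.30 (Klrk1), -0.036 to 0.11 (Ncr1) and -0.11 to 0.015 (Prf1) in propionate against control. TPM keeps no depth, which limits what can be said of the 4 members that did not reach 1 TPM in 6 libraries.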
